A study of Mus musculus with 22 samples.

Results

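MMTV_T121 WAPCre p53coco tumours are mouse mammary tumours that carry T121 with a p53 change and, unlike the most similar tumours of the series, no change of Brca1 in their label. They were taken by title and number 4 of the 22 tumours, which gives 4 of the 22 arrays. The label of all 4 also holds the word MIXED in the place where others name a mouse strain, and it gives no age. Within each array the RNA of 1 end-stage tumour, labelled with Cy5, was set against a reference RNA of whole mouse, labelled with Cy3. The group most like them, MMTV_T121 WAPCre p53coco Brca1coco, has 8 tumours measured against the same reference, and the other 10 tumours of the series fall under 9 further labels. These labels differ in strain (BALBc, B6D2F1 or the word MIXED), in the promoters named, and in p53. The p53 words are p53null, p53het, p53cohet, p53coco and p53cococ, and BALBc_WAP_T121 has none. The label WAPCre_p53coco_Brca1coco names no T121. The series asks how the Rb family, p53 and Brca1 act together in mammary tumours. The word coco is not spelled out in the labels and is kept as given.

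T121 is a fragment of the SV40 large T antigen that binds and inactivates the Rb family of pocket proteins, which otherwise hold back E2F factors and entry into the cell cycle. The MMTV promoter is active in mammary epithelium and in some other epithelia, and the Wap promoter is that of a milk protein gene, active in mammary secretory cells in pregnancy and lactation. Cre driven by Wap therefore acts in such cells, and cells of other types in the tumour tissue need not carry the change. p53 halts or kills cells with damaged DNA and switches on genes such as Cdkn1a. On a 2-colour array both RNAs compete for the same spots, and the log2 ratio of tumour over reference is the measurement. The reference mixes RNA of all organs, so a ratio states how much more or less of a transcript the tumour RNA held than whole-mouse RNA did, and not a difference from normal mammary gland.

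The 4 arrays were not alike, and 1 tumour stood apart. Replicates are numbered 1 to 4 in accession order, which carries no pairing. Of the 20053 usable spots, 49.5% to 68.6% were above background in the tumour channel and 80.9% to 92.5% in the reference channel, and the number of 4 arrays limits the precision. Each reference channel, set against the median of all other reference channels, gave an r of 0.976 to 0.991. Across 17085 spots the log2 ratios of replicates 3 and 4 had a Pearson r of 0.863, those of replicate 1 with replicates 3 and 4 of 0.728 and 0.714, and those of replicate 2 with replicates 1, 3 and 4 of 0.487, 0.659 and 0.567, where every array shares the reference. Spots that serve as controls on part of the series put replicate 1 in 1 array set (ratio to the shared control spots 1.14) and replicates 2, 3 and 4 in another (0.0625 to 0.08), and values without replicate 1 are therefore also the values within a set. Replicate 2 also differed in its tissue markers, described with the epithelial genes, so counts are given with and without it. In RNA of whole tumours, fewer cells of a type and less RNA per cell cannot be told apart. Nothing in the labels states that each tumour is from an animal of its own, so a p-value here covers the spread among these 4 samples and no more.

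Of 17085 spots tested, 2961 were called (17.3%), with an adjusted p under 0.05 in limma's moderated test against 0. Higher in the tumours than in the reference were 768 spots (4.5%), and lower were 2193 (12.8%). At least 2-fold were 300 of the higher (1.76%) and 1197 of the lower (7.01%), and the median log2 ratio was 0.83 over the higher and -1.11 over the lower. All called spots had the same sign in 4 of 4 tumours, and 125 spots were at least 2-fold higher and 739 at least 2-fold lower in every tumour. Among the lower spots 443 (20.2%) were not above background in the tumour channel on any array, so that their ratio is only a bound, against 2612 of all 17085 tested spots. Without replicate 2 the test called 2731 spots (16.0%), 719 higher (4.21%) and 2012 lower (11.8%). The spots called both ways numbered 2000, which is 67.5% of the calls over 4 tumours and 73.2% of those over 3. The count was 2918 without replicate 1, which is the value within an array set, 579 without replicate 3 and 1041 without replicate 4. Of 46 called genes examined one by one, 10, 4, 24 and 14 lost their call without replicate 1, 2, 3 and 4 in turn. The share of higher among called spots was 25.9% after loess, 28.5% with the log ratios the authors deposited and 58.1% after median centring alone, where 2013 spots were higher and 1451 lower. Centring moved the median of all tested spots by 0.111 relative to loess and turned the sign of 32 of the 2961 called spots, so the balance of higher and lower calls rests on the scaling. The reference is a single RNA whose own spread is not in the test, and the dyes were not swapped, so a dye effect of a spot is part of its ratio.

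**Figure D1:**
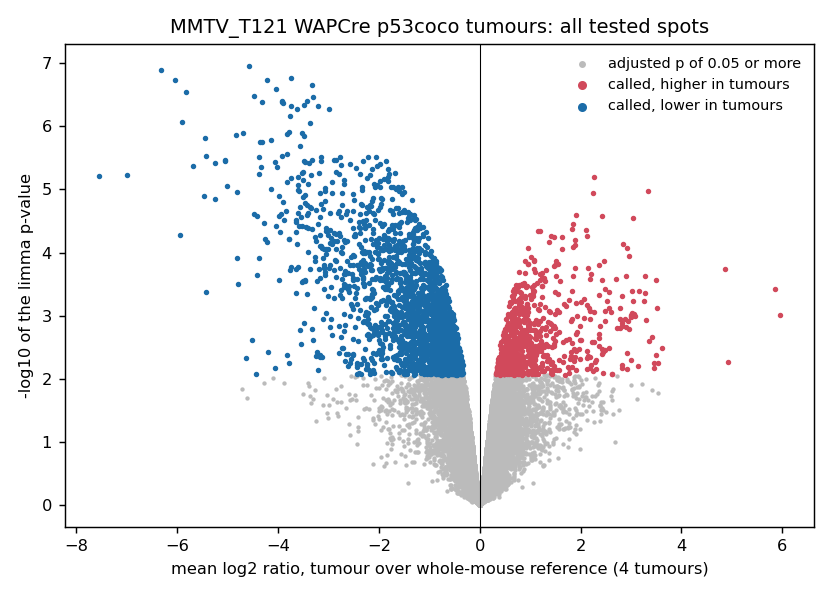
Each point is 1 of the 17085 tested spots, with the mean log2 ratio of tumour over whole-mouse reference over 4 tumours on the horizontal axis and -log10 of the limma p-value on the vertical axis. The 768 spots called higher (red) and the 2193 called lower (blue) lie on either side of 0, and the lower ones reach further out.

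Casein genes had the 4 highest mean ratios among the tested spots with a gene name. Caseins are the main proteins of milk, and their genes lie together on chromosome 5. Of the 5 milk protein genes listed, 3 of 5 rose and none fell (background 4.5% higher), with a median log2 ratio of 4.86 against 0.0085 over all tested spots. Another casein gene, Csn1s2a, is not on the list and ranked first among the genes chosen by size. Csn1s2a, an alpha-S2-like casein, had log2 ratios of 3.10, 6.03, 7.22 and 7.51 in replicates 1 to 4. Its background-subtracted intensity ran from 1796 to 56887 in the tumour channel, against 111 to 254 in the reference channel. All 4 tumours thus stood far above the reference, with a mean log2 ratio of 5.96 ± 2.01 (SD, n = 4), a 62.3-fold difference (limma adjusted p = 0.0147). Csn1s1, alpha-S1 casein, had log2 ratios of 4.15, 4.95, 6.68 and 7.62 with a mean of 5.85 ± 1.58 (limma adjusted p = 0.00858). Csn3, kappa casein, which keeps casein micelles in suspension, had log2 ratios of 4.35, 3.76, 4.95 and 6.36 with a mean of 4.86 ± 1.11 (limma adjusted p = 0.00585). Csn2, beta casein, had log2 ratios of 2.33, 3.37, 7.71 and 6.33 with a mean of 4.93 ± 2.51 (limma adjusted p = 0.039). Replicates 3 and 4 were the highest tumours for all 4 caseins. Their tumour intensities were 56887 and 55860 for Csn1s2a and 54555 and 52984 for Csn1s1. These lie near the largest value of the genes described here, 57069 for Hba-a1 in the reference channel. Whether the scanner's range cut off such values was not tested, so the size and order of these ratios are less certain. The reference signal was above background on 4 of 4 arrays for Csn1s2a and Csn3 but on 3 of 4 for Csn1s1 and Csn2, so 1 ratio of each of these is less certain. Csn2 was dim in the reference, at 28 to 96, and its mean was 6.28 with plain background subtraction. Leaving out 1 tumour ended some of these calls. Without replicate 3 the limma adjusted p was 0.082 for Csn1s2a, 0.0598 for Csn1s1, 0.0506 for Csn3 and 0.12 for Csn2, whose mean was then 4.01. Without replicate 4 it was 0.0645 for Csn1s2a and 0.135 for Csn2, and without replicate 2 it was 0.0591 for Csn2.

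The other 2 milk protein genes did not pass the test over 4 tumours. Wap, whey acidic protein, whose promoter drives Cre in these mice, had log2 ratios of 0.93, 0.62, 5.28 and 2.22, with a mean of 2.26 ± 2.13 (limma adjusted p = 0.137). Replicate 3 was by far the highest tumour for this gene. Lalba, alpha-lactalbumin, the regulatory subunit of lactose synthase, had log2 ratios of 1.38, 0.42, 3.47 and 2.29, with a mean of 1.89 ± 1.30 (limma adjusted p = 0.076). Without replicate 2 the adjusted p was 0.0451 for Lalba and 0.135 for Wap. The summed background-subtracted intensity of the 5 listed genes was 58380, 8347, 186600 and 96550 in the tumour channel, against 1686, 465, 2746 and 637 in the reference channel.

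The casein genes were high together, and the stretch just before the start of each is shown here for the pair that holds a TTCNNNGAA motif, the palindrome that STAT5, the transcription factor activated by prolactin, is known to bind. Sequences are from RefSeq, build GRCm38.p6, 5′ to 3′ on the strand of the gene, 250 bases before the start, with the motif in capitals. Csn1s1 lies on the plus strand (chr5:87665958-87666207) and Csn2 on the minus strand (chr5:87699426-87699675).
Csn1s1: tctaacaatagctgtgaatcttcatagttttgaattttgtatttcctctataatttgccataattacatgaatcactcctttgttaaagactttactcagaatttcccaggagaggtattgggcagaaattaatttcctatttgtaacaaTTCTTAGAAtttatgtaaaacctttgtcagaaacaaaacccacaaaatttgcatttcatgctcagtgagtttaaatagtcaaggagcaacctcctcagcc
Csn2: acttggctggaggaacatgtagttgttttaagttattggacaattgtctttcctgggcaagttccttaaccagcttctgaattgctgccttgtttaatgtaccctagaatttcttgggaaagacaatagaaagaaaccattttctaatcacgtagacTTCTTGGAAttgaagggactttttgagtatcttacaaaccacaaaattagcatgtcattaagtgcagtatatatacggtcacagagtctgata
The match in Csn1s1 is TTCTTAGAA, beginning 100 bases before the start, and the match in Csn2 is TTCTTGGAA, beginning 93 bases before it. The motif reads the same on both strands. Of 5 milk protein genes with a promoter in the table (Csn1s1, Csn1s2a, Csn2, Wap and Lalba), 2 hold it in these 250 bases, against 1940 of all 27025 promoters (7.18%). No match in Csn1s2a, Wap or Lalba says only that these letters are not in this window.

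Across the series the milk protein genes varied widely. In the p53coco Brca1coco tumours Csn1s2a ranged over -1.88 to 7.21 with a median of 3.21 (n = 8). In the 10 tumours of other labels it ranged over -0.094 to 8.16 with a median of 3.21. The reference channels of 3 of those arrays were unlike the rest, with r between 0.511 and 0.763 against the median channel, and without them, a setting chosen after the values were seen, the range was 0.68 to 8.16 with a median of 3.80 (n = 7). Csn1s1 ranged over 4.15 to 7.62 in p53coco tumours and over -0.17 to 7.16 in p53coco Brca1coco tumours. The groups overlapped for both genes, and the p53coco minus p53coco Brca1coco difference was 2.99 ± 1.43 (SE) for Csn1s2a with a limma adjusted p of 0.568. For Csn3 the difference was 0.027 ± 1.0 (SE, adjusted p = 0.997).

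**Figure D2:**
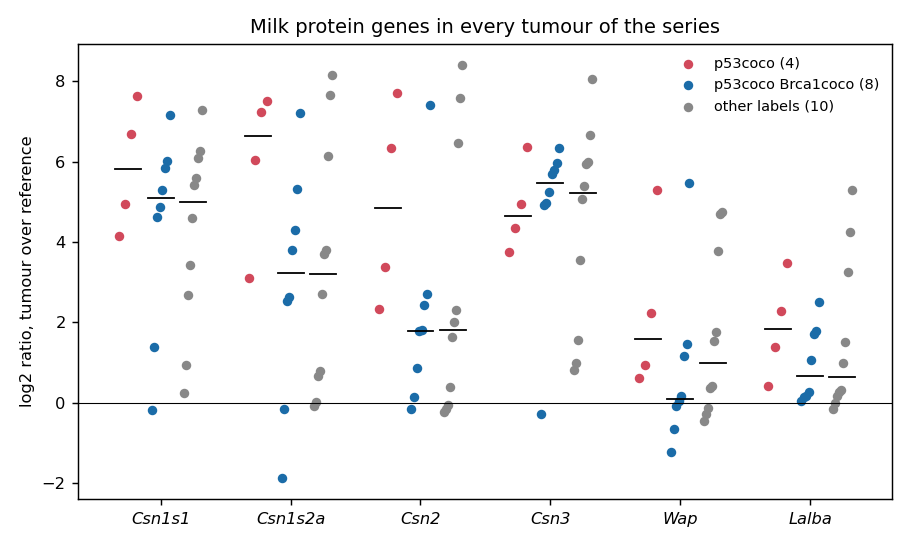
Log2 ratio of tumour over whole-mouse reference (vertical axis) of 6 milk protein genes, 1 point a tumour and a bar at each group's median, for p53coco (4), p53coco Brca1coco (8) and tumours of other labels (10). The p53coco tumours lie above 0 for all 6 genes, and their points overlap those of both other groups, in which 3 of the 10 tumours of other labels have a reference channel unlike the rest.

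Genes of luminal epithelium separated replicate 2 from the other tumours. Luminal cells line the mammary ducts and alveoli and carry the keratins Krt8 and Krt18 and the adhesion protein Epcam. None of the 9 tested luminal genes passed the test over 4 tumours, while without replicate 2 the number called higher was 7 of 9 (background 4.21%), namely Krt8, Krt18, Epcam, Cldn3, Cldn7, Elf5 and Gata3. Replicate 2 was set aside because of tissue markers such as these, so the counts without it describe the other 3 tumours and are no independent test, here and for the muscle and mesenchymal genes. The list's median was 2.06, -1.75, 2.29 and 2.74 in replicates 1 to 4. Krt18 had log2 ratios of 3.34, -2.02, 3.33 and 3.27, with a mean of 1.98 ± 2.66 over 4 tumours (limma adjusted p = 0.25) and of 3.31 without replicate 2 (adjusted p = 0.00459). Krt8 had log2 ratios of 2.35, -2.22, 2.46 and 2.42, and 2.41 on average without replicate 2 (adjusted p = 0.00512). Epcam had log2 ratios of 3.03, -2.10, 2.29 and 2.96, and 2.76 on average without replicate 2 (adjusted p = 0.00794). In each of these genes 3 tumours agreed closely and replicate 2 lay below the reference. Elf5, a transcription factor of the milk-secreting lineage, was above 0 in all 4, at 2.66, 0.55, 3.58 and 4.11 (mean 2.72 ± 1.57, adjusted p = 0.0516). Esr1 and Pgr, the receptors for oestrogen and progesterone, had no tumour signal above background on any array and were not tested. The reference was dim too, above background on 2 of 4 arrays for Esr1 and 0 of 4 for Pgr. These spots therefore do not show whether the tumours lack the receptors.

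Skeletal muscle genes moved the opposite way in replicate 2. None of 6 passed the test over 4 tumours, and in the other 3 tumours all 6 were called lower (background 11.8%). Their median was -4.22, 1.72, -3.38 and -3.66 in replicates 1 to 4, and 5 of the 6 were above 0 in replicate 2. Myh4, a fast myosin heavy chain, had log2 ratios of -4.11, 4.94, -3.27 and -3.22 (limma adjusted p = 0.583, and 0.00687 without replicate 2). Ckm, muscle creatine kinase, had log2 ratios of -4.38, 2.48, -3.16 and -2.79 (adjusted p = 0.305, and 0.0144 without replicate 2). Acta1, skeletal alpha-actin, had log2 ratios of -4.75, 0.97, -3.80 and -4.45 (adjusted p = 0.123, and 0.00583 without replicate 2). The summed background-subtracted intensity of the 6 muscle genes was 12710, 225600, 9678 and 6141 in the tumour channel, against 113800, 90280, 94070 and 82600 in the reference channel. Mylpf alone gave 49502 to 51863 of each reference sum, near the largest intensities, where a limit of the scanner was not tested. In replicate 2 the tumour values of Mylpf (52030), Acta1 (51265) and Myh4 (54294) were as high. Ckm was far from that range. Its tumour intensity was 8192 in replicate 2 and 66 to 111 in the other tumours, against 886 to 2327 in the reference channel. For Ckm the tumour channel of replicate 2 thus carried the difference. The part of muscle RNA in the other results of replicate 2 was not tested. In the 8 p53coco Brca1coco tumours the list's median was -4.31 to -1.82 per tumour. Myh4 ranged over -3.72 to 3.19 in them, while the highest values of the other 5 genes were -0.71 (Myh1), -1.51 (Ckm), -2.14 (Acta1), -2.24 (Mylpf) and -2.32 (Tnnt3). A second spot of Myh1 had a mean log2 ratio of 0.31, against -1.85 for the brighter spot that is used here.

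Mesenchymal genes, which mark fibroblasts and cells that have left the epithelial state, were mostly below the reference outside replicate 2. Of 11 tested, only Cdh2 fell over 4 tumours (1 of 11, background 12.8% lower), and 6 fell without replicate 2 (background 11.8%). Cdh2, N-cadherin, had log2 ratios of -1.93, -0.76, -1.79 and -1.63 with a mean of -1.53 ± 0.53 (limma adjusted p = 0.0175), but its tumour signal was above background on 1 array only, and its adjusted p was 0.0977 without replicate 3 and 0.0807 without replicate 4. Vim, vimentin, an intermediate filament of mesenchymal cells, had log2 ratios of -2.08, 1.13, -1.92 and -2.80 (adjusted p = 0.219, and 0.0122 without replicate 2). Replicate 2 was the highest tumour for Vim, and 8 of the 11 genes were above 0 in it. Snai2, Zeb1 and Twist1, transcription factors of the epithelial to mesenchymal transition, fell without replicate 2, with mean log2 ratios of -1.72, -2.11 and -1.55. Col1a1, a chain of type I collagen, had log2 ratios of -3.14, 0.020, -1.29 and -2.41 (adjusted p = 0.104, and 0.0392 without replicate 2).

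**Figure D3:**
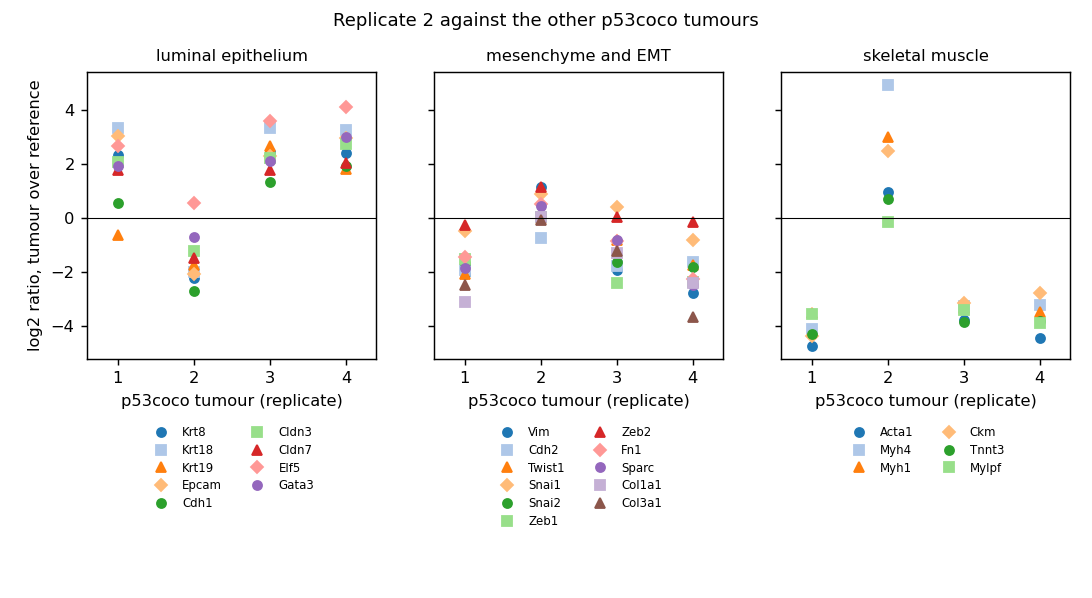
Log2 ratio of tumour over whole-mouse reference (vertical axis) in each p53coco tumour (horizontal axis) for the tested genes of luminal epithelium (9), mesenchyme (11) and skeletal muscle (6), 1 symbol a gene. In replicate 2 most luminal genes are below 0, 8 of 11 mesenchymal genes and 5 of 6 muscle genes are above 0, and muscle genes in the other 3 tumours are all below 0.

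Basal epithelium, the contractile outer layer of the duct, was represented by 7 tested genes. Of these 3 fell and none rose (background 12.8% lower), with the same number without replicate 2 (background 11.8%). Krt5, a basal keratin, had log2 ratios of -2.39, -2.56, -1.49 and -1.02 with a mean of -1.87 ± 0.74 (limma adjusted p = 0.0225, 0.0595 without replicate 1 and 0.0928 without replicate 3). Cnn1 (calponin 1) and Myh11 (smooth muscle myosin), both of the contractile apparatus, had mean log2 ratios of -1.83 ± 0.46 and -1.43 ± 0.13 (adjusted p = 0.00826 and 0.00252). All 4 tumours were below the reference for these 3 genes, as every called spot had 1 sign in all 4 tumours. Krt14, another basal keratin, differed between tumours, at -2.12, -1.18, 1.71 and 0.56 (adjusted p = 0.809), and Trp63, a transcription factor of basal cells, had -2.35, -1.57, 0.15 and 0.13 (adjusted p = 0.261). For Krt14 and Trp63 replicates 3 and 4 were above 0 and replicates 1 and 2 below.

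After the caseins, the genes with the highest ratios included several known from the immune response. Ccl8, a chemokine that attracts monocytes, had log2 ratios of 4.34, 5.38, 3.10 and 1.63 with a mean of 3.61 ± 1.62, a 12.2-fold difference (limma adjusted p = 0.0291). Cd14, a co-receptor for bacterial lipopolysaccharide, had log2 ratios of 3.91, 2.23, 4.80 and 3.09 with a mean of 3.51 ± 1.10 (adjusted p = 0.0127). Mmp3, stromelysin 1, which degrades extracellular matrix, had log2 ratios of 4.30, 2.47, 4.29 and 2.15 with a mean of 3.30 ± 1.15 (adjusted p = 0.0161). All 4 tumours lay above the reference for the 3 genes, which the choice of genes required, and the tumours that ranked highest differed from gene to gene. H2-K1, a heavy chain of class I molecules, which present peptides to T cells, had log2 ratios of 2.98, 1.91, 3.40 and 3.80 with a mean of 3.02 ± 0.82 (adjusted p = 0.00888). H2-Q7, of the same family, had a mean of 3.27 ± 0.78 (adjusted p = 0.00659), and its 10 spots ranged over 2.99 to 3.27. Class I genes are near-identical in sequence, so these spots may bind transcripts of several of them. The interferon-induced genes Ifi27l2a and Ifi202b had means of 3.03 ± 0.43 and 2.96 ± 0.59 (adjusted p = 0.00255 and 0.00474). Replicate 2 was the lowest tumour for H2-K1, H2-Q7, Ifi27l2a and Ifi202b. Without replicate 3 the adjusted p was 0.118 for Ccl8, 0.0505 for Cd14, 0.0794 for Mmp3, 0.0632 for H2-K1 and 0.0537 for H2-Q7. Ccl8 also lost its call without replicate 1 (0.0788) and Cd14 without replicate 4 (0.0572).

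A further 3 of the 12 highest genes had a common shape, with replicate 2 near 1 and the other tumours at about 3 or more. Brinp1, known from neurons, had log2 ratios of 3.48, 0.91, 5.30 and 4.11 with a mean of 3.45 ± 1.85 (limma adjusted p = 0.0436). Amph, amphiphysin, a protein of membrane uptake at synapses, had log2 ratios of 3.46, 0.96, 4.95 and 4.41 with a mean of 3.45 ± 1.77 (adjusted p = 0.0398). Ikzf4, a zinc finger transcription factor of the Ikaros family, had log2 ratios of 2.94, 0.97, 4.50 and 3.60 with a mean of 3.0 ± 1.5 (adjusted p = 0.0375). A second spot of Ikzf4 had a mean log2 ratio of 0.14 (adjusted p = 0.575), so the spots of this gene disagreed. Without replicate 2 the means of Brinp1 and Amph were 4.30 and 4.27. Each of the 3 genes lost its call without replicate 1, 3 or 4, with adjusted p from 0.0896 to 0.151. These genes were also high in p53coco Brca1coco tumours, where Brinp1 ranged over 4.17 to 6.51, Amph over 3.32 to 5.45 and Ikzf4 over 2.48 to 5.13, and the differences between the groups were not called (adjusted p = 0.319, 0.62 and 0.571).

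Genes of the liver were far below the whole-mouse reference in every tumour. All 7 tested genes of the liver list fell, with and without replicate 2 (background 12.8% and 11.8% lower). Their median was -3.68, -3.30, -3.19 and -3.38 in replicates 1 to 4, against 0.0085 for the mean ratio over all tested spots. Fgb, the fibrinogen beta chain, was closest between tumours, at -4.57, -4.40, -4.65 and -4.65 with a mean of -4.57 ± 0.12 (limma adjusted p = 0.000452). Alb, albumin, had log2 ratios of -4.16, -3.39, -3.57 and -4.46 with a mean of -3.90 ± 0.50 (adjusted p = 0.00203). Its reference intensity was 50644 to 55626, near the largest values, and whether the scanner's range limited it was not tested. Apob and Ttr, of lipid and of thyroid hormone transport, were not above background in the tumour channel on any array. They were at least 5.43-fold and 6.61-fold lower than the reference, counted from the lowest tumour signal above background on each array after loess and Aquantile scaling, which is open to dye bias. Summed over the 7 genes, the background-subtracted intensity was 8083 to 15560 in the tumour channel, against 123600 to 145000 in the reference channel.

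Of the 12 genes with the lowest ratios, most are known for expression in liver or gut, and 11 of 12 had an SD under 1 over the 4 tumours. Fabp1, liver fatty acid binding protein, had log2 ratios of -8.69, -7.58, -7.09 and -6.85 with a mean of -7.55 ± 0.81, a 188-fold difference (limma adjusted p = 0.00134). Its background-subtracted intensity was 40 to 130 in the tumour channel, against 16204 to 29065 in the reference channel. Fgg, the fibrinogen gamma chain, had log2 ratios of -8.01, -7.01, -6.64 and -6.28 with a mean of -6.99 ± 0.75, a 127-fold difference (adjusted p = 0.00133). Replicate 1 was the lowest tumour for both. The means of Igfbp1, Ambp, Apoh, Rbp4, F2, Fbp1 and Kng2, genes of secreted liver proteins and, for Fbp1, of glucose synthesis, ran from -6.32 to -5.05, and that of Fabp2, the intestinal counterpart of Fabp1, was -5.42. Kng2 is near-identical to Kng1, and its spot may bind both. Lor, loricrin, of the outer skin layer, had a mean of -5.82 ± 0.28 (adjusted p = 0.000452). Itm2a, a membrane protein known from cartilage, muscle and thymus, varied most, at -5.22, -3.41, -6.27 and -6.83 (mean -5.43 ± 1.5, adjusted p = 0.00905, and 0.0623 without replicate 3), with replicate 2 highest. In p53coco Brca1coco tumours all 12 genes were below the reference too, and no difference between the groups was called.

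**Figure D4:**
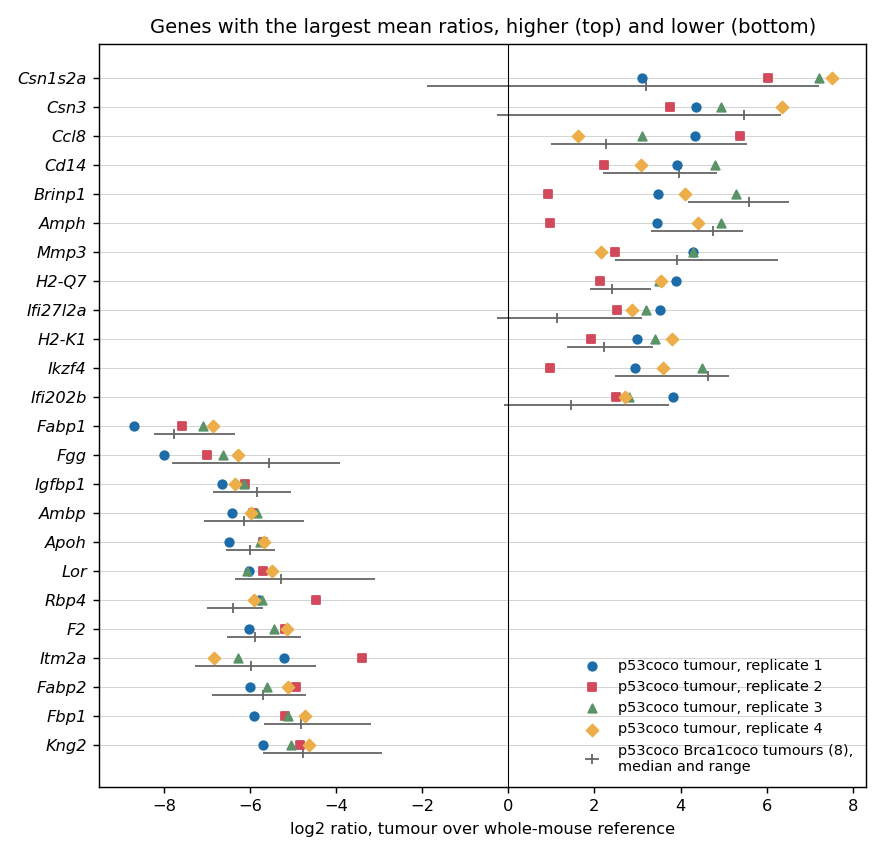
Log2 ratio of tumour over whole-mouse reference (horizontal axis) of the 12 genes with the largest mean ratio in each direction, 1 symbol for each p53coco tumour, with the median and range of the 8 p53coco Brca1coco tumours as a grey line below. By the rule that chose them, the 12 higher genes lie above 0 and the 12 lower genes below 0 in all 4 p53coco tumours. Replicate 2 (red squares) is lowest for Brinp1, Amph and Ikzf4.

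Of 24 tested cell cycle genes, which Rb proteins restrain through E2F, 3 rose, none fell and 21 did not pass the test (background 4.5% higher). The median of their mean log2 ratios was 0.59, and 22 had a mean above 0. Aurka, a kinase of the mitotic spindle, had log2 ratios of 0.93, 0.67, 0.74 and 1.24 with a mean of 0.89 ± 0.26 (limma adjusted p = 0.0156). Pcna, the sliding clamp of DNA polymerase, had log2 ratios of 1.0, 0.44, 0.54 and 1.26 with a mean of 0.81 ± 0.39 (adjusted p = 0.0422). Plk1, a kinase of mitotic entry, had log2 ratios of 1.18, 0.78, 0.49 and 1.76 with a mean of 1.05 ± 0.55 (adjusted p = 0.0451). All 4 tumours were above the reference for these genes, as every called spot had 1 sign in all 4 tumours. Replicate 4 was the highest for each. The list's median by tumour was 0.29, 0.19, 0.51 and 1.31, and 24 of 24 genes were above 0 in replicate 4, against 16 in replicate 2. Mcm2, of the replicative helicase, had -0.10, 0.67, 1.43 and 1.97 (adjusted p = 0.133), and Mki67, a proliferation marker, had -0.32, -0.97, -0.49 and 0.78 (adjusted p = 0.585). Without replicate 2 the number called higher was 4 (background 4.21%), namely Aurka, Pcna, Rrm2 and Tk1, while Plk1 had an adjusted p of 0.0776. Without replicate 3 the adjusted p was 0.0801 for Aurka, 0.129 for Pcna and 0.0936 for Plk1, and without replicate 4 it was 0.0526, 0.117 and 0.0955. Pcna and Plk1 also lost their calls without replicate 1 (0.0968 and 0.106) and with the array set as a block (0.0626 and 0.0802). The summed tumour intensity of the list over that of the reference had a log2 of 1.02, -0.28, 0.67 and 1.42 in replicates 1 to 4. In p53coco Brca1coco tumours the list's median was 0.32 to 0.99 per tumour. Tyms had 3 tested spots with means of 0.014 to 0.74, none of them called.

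Genes of the Rb family, Brca1 and genes downstream of p53 were mostly not called. None of the 4 tested spots of the Rb family and Brca1 was called, and where a probe lies within its gene is not known here, so they do not check a deletion. Rb1, the retinoblastoma protein, had log2 ratios of -0.34, -0.15, 1.13 and 0.023 (limma adjusted p = 0.693). Rbl1 and Rbl2, which encode the pocket proteins p107 and p130, had means of 0.50 ± 0.75 and 0.30 ± 0.31 (adjusted p = 0.308 and 0.201). Brca1, of homologous recombination, had log2 ratios of 0.54, 0.14, 0.81 and 1.44 with a mean of 0.73 ± 0.55 in p53coco tumours (adjusted p = 0.0971), and a mean of 0.95 ± 0.47 in p53coco Brca1coco tumours (n = 8), a difference of -0.22 that was not called (adjusted p = 0.869). Trp53 was not analysed here. Of 5 tested p53 targets, 1 fell and none rose (background 12.8% lower). This was Cdkn1a, the cell cycle inhibitor p21, with log2 ratios of -1.31, -1.30, -0.84 and -0.29 and a mean of -0.93 ± 0.49 (adjusted p = 0.0461, and 0.101, 0.105 and 0.169 without replicate 1, 2 or 3). Mdm2, the ubiquitin ligase of p53, had a mean of 0.32 ± 0.37 and Bbc3, an inducer of apoptosis, of 0.11 ± 0.60, and neither was called. None of 7 DNA repair genes was called, with and without replicate 2, and their median was 0.41.

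Markers of other tissues were mostly lower than in the whole mouse. Of 4 tested brain genes 3 fell (background 12.8% lower), among them Syt1, a synaptic vesicle protein, with a mean of -2.12 ± 0.79 (limma adjusted p = 0.0194, 0.0908 without replicate 3 and 0.0762 without replicate 4). Snap25, of synaptic vesicle fusion, was not above background in the tumour channel on any array and was at least 6.75-fold lower (adjusted p = 0.00616). Both erythroid genes fell, Alas2, of haem synthesis, at -3.69, -1.81, -2.73 and -2.81 (adjusted p = 0.00966) and Hba-a1, alpha globin, at -1.91, -0.49, -1.42 and -2.31 (adjusted p = 0.0413). Replicate 2 was the nearest to the reference for both. The reference intensity of Hba-a1 was 54082 to 57069, and whether the scanner's range limited it was not tested. Alas2 lost its call without replicate 3 (0.0667) or 4 (0.0552), and Hba-a1 without replicate 1 (0.101), 3 (0.158) or 4 (0.122). Of 4 adipocyte genes 2 fell, Plin1, a coat protein of lipid droplets, at -1.79, -1.87, -1.88 and -1.84 (adjusted p = 0.00117) and Adipoq, the hormone adiponectin, at -1.51, -1.70, -1.63 and -2.95 (adjusted p = 0.0167, and 0.0801 without replicate 3). Fabp4, a fatty acid binding protein of adipocytes, had -1.72, -0.45, -1.90 and -3.22 (adjusted p = 0.0619, and 0.0312 without replicate 2). Lep, the remaining adipocyte gene tested, went the other way, at 0.139, 0.25, 0.278 and 0.255, and was not called (limma adjusted p = 0.103). The tumours were almost level for Plin1 and far apart for Fabp4.

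Of 4 tested leukocyte markers 1 passed the test, and the tumours differed. Cd3e, of the T cell receptor complex, was called (background 4.5% higher), at 0.34, 0.43, 0.46 and 0.26 with a mean of 0.37 ± 0.088 (limma adjusted p = 0.0421), and its call was lost with any 1 tumour left out (adjusted p from 0.0587 to 0.204). The summed intensity of the 4 genes was 27220, 5313, 4365 and 836 in the tumour channel. In the reference channel it was 2466, 2162, 2022 and 1217. Only in replicate 4 was the sum below that of the reference, where Lyz2 had 295 against 739. The log2 ratio was above 0 there for 3 of the 4 genes. Ptprc, the pan-leukocyte protein CD45, had 1.98, 1.57, 0.77 and 0.029 (adjusted p = 0.103). Cd74, the invariant chain of class II molecules, had 3.75, 0.63, 0.40 and 0.13 (adjusted p = 0.261). For Ptprc and Cd74 replicate 1 was the highest and replicate 4 the lowest. Lyz2, lysozyme of myeloid cells, had 0.63, 1.85, 1.33 and -1.12 (adjusted p = 0.40). Endothelial markers had means of -0.029 ± 0.40 for Pecam1 and 0.10 ± 0.22 for Cdh5 (limma adjusted p = 0.917 and 0.557). Their tumour signal was above background on only 2 of 4 arrays each, at intensities of 42 to 159 and 26 to 94. Ratios of such dim spots say little on whether the tumours differ from the reference.

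**Figure D5:**
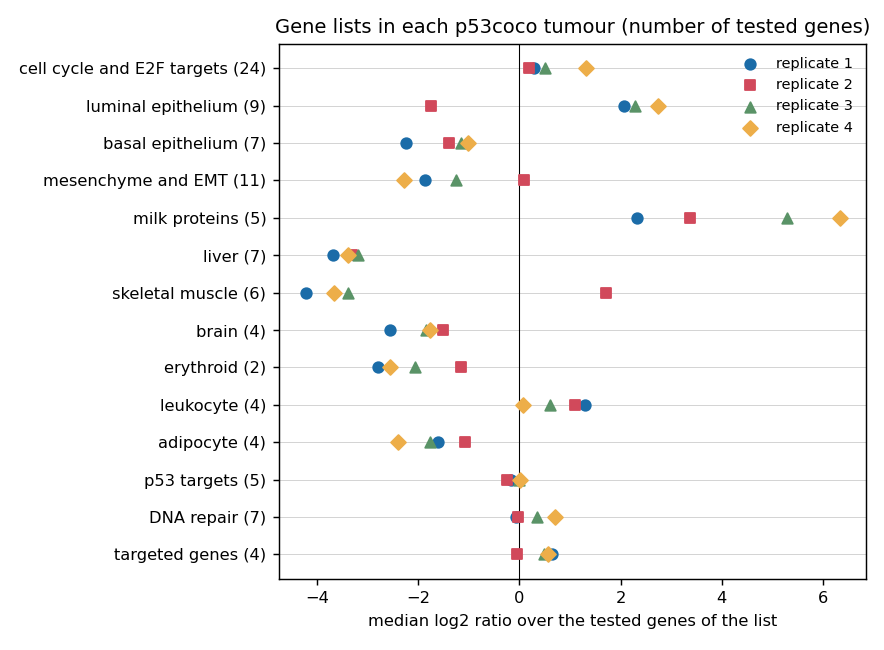
Median log2 ratio of tumour over whole-mouse reference (horizontal axis) over the tested genes of each list (rows, number of genes in brackets), 1 symbol for each p53coco tumour. Liver medians lie between -3.68 and -3.19 in all 4 tumours, milk protein medians between 2.33 and 6.33, and replicate 2 (red squares) stands apart for luminal epithelium at -1.75 and skeletal muscle at 1.72.

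Set against the 8 p53coco Brca1coco tumours, in a fit of all arrays with 1 mean for each label, no spot was called of 17085 (0.0%) with limma, while 1547 had an unadjusted p under 0.05. Both groups were measured against the same reference. The array sets were not balanced, as 3 of 4 p53coco arrays but 2 of 8 p53coco Brca1coco arrays lie in the set with dark control spots, and with the array set as a block no spot was called either. The spread in this fit also draws on B6D2F1_WAP_T121_p53null, the only other label with more than 1 array. In that label 1 reference channel was unlike the rest (r = 0.511). With the compared groups alone 2 spots were called. The smallest p with a lower value in p53coco tumours was that of Tm4sf1, a membrane protein of the tetraspanin-like L6 family. It had log2 ratios of 1.55, 1.05, 1.92 and 1.05 in p53coco tumours, against a range of 2.80 to 3.93 and a mean of 3.40 ± 0.41 in p53coco Brca1coco tumours (n = 8). The groups did not overlap, and the p53coco minus p53coco Brca1coco difference was -2.01 ± 0.26 (SE, adjusted p = 0.0532), or -1.93 with the array set as a block (adjusted p = 0.166). Within the dark set Tm4sf1 ranged over 1.05 to 1.92 in p53coco tumours (n = 3) and over 2.84 to 3.78 in p53coco Brca1coco tumours (n = 2). The smallest p with a higher value was that of Glo1, glyoxalase 1, which removes methylglyoxal. It had log2 ratios of -0.63, 0.16, -0.17 and -0.60 in p53coco tumours, against a range of -2.23 to -1.06 and a mean of -1.73 ± 0.36 in p53coco Brca1coco tumours, a difference of 1.42 ± 0.21 (SE, adjusted p = 0.0872), or 1.28 with the array set as a block (adjusted p = 0.166). These groups did not overlap either, and within the dark set Glo1 ranged over -0.60 to 0.16 in p53coco tumours and over -1.68 to -1.46 in p53coco Brca1coco tumours. Both genes were picked for the smallest p among 17085 spots, so the lack of overlap follows from the choice and adds no support. The share of all tested spots without overlap was not counted. A p that misses the threshold does not show that the groups are alike.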

How the data were processed

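Total RNA of end-stage tumours was amplified and labelled with Cy5 and whole-mouse total RNA with Cy3, per the labels' protocols. The deposited tables hold the intensity of each spot and of its local background in both channels as linear values per the file headers, and a log2 ratio after lowess within the array by the authors, used here as an alternative. Not given in the sources used here are the scanner, image software and lowess settings.

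Tables were matched on the spot's number. Of 22575 spots, 1910 that are controls in either of the control patterns were left out, as were 612 more marked unusable on any of the 4 arrays, which left 20053. Another 2968 were dim and 17085 were tested, having a signal over the local background by more than 2 of its SD in 1 channel or both on 3 or more of the 4 arrays. Normexp with an offset of 50 corrected the background, and loess within the array, control spots at weight 0, normalized the ratios (limma 3.58.1, R 4.3.3). These 4 arrays were fitted alone with lmFit and eBayes against 0, two-sided, with Benjamini-Hochberg adjustment over all tested spots and a threshold of 0.05. The difference from p53coco Brca1coco tumours came from a fit of 22 arrays with 1 mean for each of 11 labels. Groups were taken from the titles. Named intensities have the median of the local background subtracted.

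Gene names are those of GEO's platform annotation: 18218 spots have 1 gene, 16 several and 4341 none, and 18175 gene IDs matched RefSeq, which changed no symbol. Across 269 genes with a pair of spots, the spots had an r of 0.344 to 0.631 on an array. The genes described are the 12 higher and 12 lower called genes with the largest mean ratio, above background in both channels and of 1 sign on all 4 arrays, by the brightest spot of each, then the called members of largest size in each gene list, the cell type markers, and the smallest p in each direction of the difference. Other genes of the lists were named after their values were seen. The tumours, lists and genes were chosen with earlier results of these data known.

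On simulated data of 17085 spots, the test of tumour over reference recovered 41% of spots changed by a log2 of 1 and 79% of those changed by 2, and the test of the difference 63% and 86%. Only 100 spots were changed at each size, while 17.3% of the real spots were called. The noise was independent and Gaussian, with each spot's spread over the 4 p53coco tumours used for every array. These shares are therefore not the power of the tests on the real data. Alternatives changed the background correction, normalization, filter, null size, arrays in the fit, array weights and array set, and left out each tumour in turn.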

Additional observations from a re-analysis of the deposited data

Results flagged for a closer look

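Of 63 genes examined over the 4 p53coco tumours, 11 had 1 tumour far from the other 3 by Dixon's gap test. Chance flags about 1 in 20 groups where groups are independent and Gaussian. Many of these genes were picked by their values or share a list, so the count is a description and no test against that rate. In 7 of the 11 that tumour was replicate 2. It was the lowest for Krt8 (-2.22), Krt18 (-2.02) and Epcam (-2.10), genes of luminal epithelium, and the highest for the muscle genes Myh4 (4.94) and Acta1 (0.97), for the endothelial gene Pecam1 (0.57) and for the retinol carrier Rbp4 (-4.46), all as log2 ratios. Replicate 1 was the lowest for the liver gene Apoh (-6.49) and for Snap25 (-4.12). Snap25 had no tumour signal above background on any array, and its reference was brightest in replicate 1 (1020, against 421 to 690). Its gap is therefore not a difference between tumours that was measured. Pecam1 was above background in the tumour channel on only 2 of 4 arrays. Replicate 4 was the lowest for Myh11 (-1.62) and for Adipoq (-2.95). The summed tumour intensity of the 6 muscle genes was 225600 in replicate 2, against 6141 to 12710 in the other 3 tumours, and the part of muscle RNA in these values was not tested.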

How the results depend on the processing

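The count of called spots moved from its main value of 2961 (768 higher, 2193 lower) under several alternatives. It was 7221 with array weights (3042 higher, 4179 lower), 4608 with all arrays in the fit (1763 higher), 1424 when both channels had to be above background on all 4 arrays (850 lower) and 356 when a log2 ratio over 1 was tested (22 higher, 334 lower). Median centring gave 2013 higher and 1451 lower, and the array set as a block 1469 higher. Leaving out 1 tumour gave 579 to 2918 calls (41 to 811 higher, 538 to 2107 lower), lowest without replicate 3 (579), and 1041 without replicate 4 (185 higher, 856 lower), where fewer tumours were tested. For the difference from p53coco Brca1coco tumours, where none was called, 1 spot was called without background correction, 7 with the log ratios of the authors, 2 with the compared groups alone, and 0 to 30 with 1 tumour left out, highest without p53coco Brca1coco replicate 1 (30). Of 46 called genes 16 stayed called under all 16 alternatives, 4 more under the 15 that could be run on them (their spots were not above background in both channels on all 4 arrays), and none reversed. Of 17 genes not called, 4 reversed and were not called there either. With 1 tumour left out, Krt19 ran from -0.20 to 1.27, below 0 without replicate 3, and Cdh1 from -0.28 to 1.28, below 0 without replicate 4 and, at -0.071, without replicate 3. Krt14 was 0.20 with median centring, 0.94 with array weights, 0.36 within the array set, which is without replicate 1, and -0.92 to 0.36 with 1 tumour left out, with 0.049 without replicate 2. Pecam1 was 0.044 with median centring, 0.034 within the array set, and -0.23 to 0.041 with 1 tumour left out, below 0 without replicate 2. Apart from fewer tumours or spots, the cause was not tested. No paired analysis was possible because the replicate numbers follow accession order only. Spots near background limit the low ratios, as 443 of the 2193 lower spots had no tumour signal above background.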

Other observations

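Genes of antigen presentation and of the interferon response were high as a group in these tumours. This list of 30 genes was chosen after values of these data had been seen, so its counts are a description with no test of the list. Of 28 tested genes 17 were called higher and none lower over 4 tumours (background 4.5% higher), and 24 were higher without replicate 2 (background 4.21%), with a median log2 ratio of 2.02 over 4 tumours. The median was 2.78, 1.01, 2.27 and 2.48 in replicates 1 to 4, so replicate 2 was the lowest, and it was 0.32 to 1.81 per tumour in p53coco Brca1coco tumours. B2m, the light chain of class I molecules, had log2 ratios of 3.76, 2.12, 2.68 and 3.09 with a mean of 2.91 ± 0.69 (limma adjusted p = 0.0065). Psmb8, a subunit of the immunoproteasome, which cuts proteins into peptides for class I molecules, had log2 ratios of 4.23, 1.55, 3.15 and 2.87 with a mean of 2.95 ± 1.11 (adjusted p = 0.0191).

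Among interferon-induced genes, Oas2, a sensor of double-stranded RNA, had log2 ratios of 3.13, 1.44, 3.05 and 4.01 with a mean of 2.90 ± 1.07 (limma adjusted p = 0.0185). Stat2, a transcription factor of the interferon pathway, had log2 ratios of 1.45, 1.81, 1.88 and 2.41 in p53coco tumours, against a range of -0.22 to 0.70 in p53coco Brca1coco tumours (n = 8). The groups did not overlap for Stat2, and the difference of 1.65 was not called (adjusted p = 0.103, and 0.24 with the array set as a block). Stat2 was named after its values were seen, so this lack of overlap is a description and no test. Within the array set with dark control spots Stat2 ranged over 1.81 to 2.41 in p53coco tumours (n = 3) and over 0.21 to 0.36 in p53coco Brca1coco tumours (n = 2). Ifit1, Isg15 and Usp18 were not called over 4 tumours (adjusted p = 0.0914, 0.0528 and 0.0771), and each rose without replicate 2 (adjusted p = 0.00878, 0.014 and 0.00583). The 4 tested leukocyte genes, none of them on this list, had a median of 1.30, 1.10, 0.61 and 0.078 in replicates 1 to 4, and their part in these values was not tested.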
